A study of Mus musculus with 10 samples.

Results

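The 10 genes described here encode the cell surface proteins by which white blood cells and their bone marrow progenitors hold on to vessel walls and to the marrow. They are 7 integrin chains (Itgal, Itgam, Itgb2, Itga4, Itga6, Itgb1 and Itgb7), the selectin ligand Selplg, the hyaluronan receptor Cd44 and the chemokine receptor Cxcr4. The members were chosen by symbol, and all 10 have a row among the 12791 genes of the authors' deposited table. RNA came from bone marrow cells of C57BL/6 mice, sorted through a gate (Lin-, c-Kit+, Sca-1-) that holds committed myeloid and erythroid progenitors. The labels describe 10 libraries from 0.1 ug of RNA each. There are 3 naive libraries from mice with no tumor, and 4 KDR-negative and 3 KDR-positive libraries from mice with a late-stage GL261 tumor at week 4. GL261 is a mouse glioma line. Per the series text the tumor hosts were KDR-GFP knockin mice, in which green fluorescence reports KDR (VEGF receptor 2), and a GFP-positive sample held about 20000 cells. The sources used here do not say whether the naive mice carried the knockin, or whether each library came from a mouse of its own, so that p-values may measure technical spread only.

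Integrins are pairs of an alpha and a beta chain. The beta 2 chain (Itgb2, CD18) pairs with alpha L (Itgal) as LFA-1, with alpha M (Itgam, CD11b) as Mac-1, and with alpha X (Itgax) and alpha D (Itgad); these receptors bind ICAM proteins on vessel walls and complement on particles. Alpha 4 (Itga4) pairs with beta 1 (Itgb1) as VLA-4, which binds VCAM-1 and keeps progenitors in the marrow, or with beta 7 (Itgb7) as the gut homing receptor of lymphocytes. Alpha 6 (Itga6) with beta 1 binds laminin. PSGL-1, the product of Selplg, carries the sugars that selectins bind, CD44 binds hyaluronan, and CXCR4 senses CXCL12, the chemokine of the marrow niche.

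The authors' deposited table describes 2 comparisons between groups. For each gene it lists a mean level in log2 CPM (counts scaled to library size, as its header names the unit), a log2 fold change and a p-value with its adjustment. Values per library are not part of it, so the depth is unknown and no standard deviation or standard error stands beside any value below. Its header names neither the groups nor the direction. The group with the higher level where the fold change is above 0 is here the numerator group, and the comparisons are called the first and the second. The denominator levels of the comparisons match and are treated as 1 group, so the comparisons share their denominator group and are not independent. Levels of single groups in CPM were derived here from the mean and the fold change. On that scale the groups differ in their summed CPM. It is 2127125 in the first numerator group and 756537 in the denominator group, a shift of 1.49 on the log2 scale. Levels scaled to library size alone have the same upper limit to their sum in every group. The sum of the first numerator group lies above that limit. The derived levels of that group are therefore not plain counts scaled to library size, and CPM below names the unit of the deposited scale. The sources used here do not give the reason. Kdr was at 2.24, 0.938 and 0.378 CPM in the first numerator, denominator and second numerator groups, and passed in neither comparison of the authors' deposited table (adjusted p = 0.617 and 1).

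The alpha 4 chain and its alternative partners are shown first by their upstream sequence, because alpha 4 and beta 7 were lower in the first comparison. Beta 1 was higher there on the deposited scale. At equal CPM totals beta 1 was at -0.63 on the log2 scale, against a median of -1.62 over all genes. Each sequence is the 250 bases before the gene's start in the RefSeq promoter table of GRCm38.p6, 5′ to 3′ on the gene's strand. The last 9 bases of the Itgb7 window lie in the first exon of an Itgb7 transcript of GENCODE M21, and no annotated exon overlaps the Itga4 and Itgb1 windows. The windows are chr2:79255176-79255425 on the plus strand for Itga4, chr15:102231936-102232185 on the minus strand for Itgb7 and chr8:128685404-128685653 on the plus strand for Itgb1. Capitals mark matches, on either strand, to AGGAAG (the core read by ETS factors such as PU.1), GGGCGG (the GC box), TGTGGT (the RUNX core) or TATAAA (the TATA box).
Itga4: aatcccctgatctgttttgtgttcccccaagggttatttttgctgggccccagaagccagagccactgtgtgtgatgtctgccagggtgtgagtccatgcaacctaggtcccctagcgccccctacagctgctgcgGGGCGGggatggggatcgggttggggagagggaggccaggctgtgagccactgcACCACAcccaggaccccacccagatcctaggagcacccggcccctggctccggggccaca
Itgb7: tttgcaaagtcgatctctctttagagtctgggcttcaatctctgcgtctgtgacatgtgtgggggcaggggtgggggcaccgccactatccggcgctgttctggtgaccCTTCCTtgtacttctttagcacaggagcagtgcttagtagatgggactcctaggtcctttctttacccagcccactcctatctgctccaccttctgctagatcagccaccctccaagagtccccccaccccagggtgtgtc
Itgb1: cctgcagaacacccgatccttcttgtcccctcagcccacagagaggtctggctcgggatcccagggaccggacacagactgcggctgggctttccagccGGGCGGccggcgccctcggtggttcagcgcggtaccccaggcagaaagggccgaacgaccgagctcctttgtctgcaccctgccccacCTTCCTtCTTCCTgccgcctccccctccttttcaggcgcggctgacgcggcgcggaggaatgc

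Itgb1 has 2 AGGAAG matches, separated by 1 base, and 1 GC box in a stretch with 21 CG dinucleotides. Itga4 has 1 GC box and 1 RUNX core match with 6 CG dinucleotides, and Itgb7 has 1 AGGAAG match with 5. No match overlapped another in these windows. Of 32851 promoters in the table, 29.5% hold AGGAAG in the same window, 32.7% GGGCGG, 14.0% TGTGGT and 12.4% TATAAA, and the median promoter has 6 CG dinucleotides. The lower genes, Itga4 and Itgb7, have no searched motif in common. The table has an entry for 6 of the 10 members; Itgal, Itgb2, Itga6 and Selplg have none.

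In the first comparison the 10 adhesion genes split evenly by direction. In the authors' deposited table Itgb2, Selplg and Itgb1 were higher in the numerator group, Itgal, Itgb7 and Itga4 were lower, and Itga6, Cd44, Cxcr4 and Itgam did not pass the threshold of an adjusted p under 0.05. Of all genes 22.3% passed, 18.8% as higher and 3.49% as lower, against 3 higher and 3 lower among the 10 members. The members had a median log2 fold change of -0.12, and all 12791 genes had -0.13. If the summed CPM of the groups are made equal, Itgb2 stays above 0 and Selplg and Itgb1 turn below it. Of the 6 called members 1 is then above 0 and 5 are below it. That scale lowers every gene by 1.49. The median of all genes was -1.62 there, and 58.1% of all genes called higher stayed above 0. Differences between members, such as between the chains of a pair, do not depend on that scale.

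**Figure D1:**
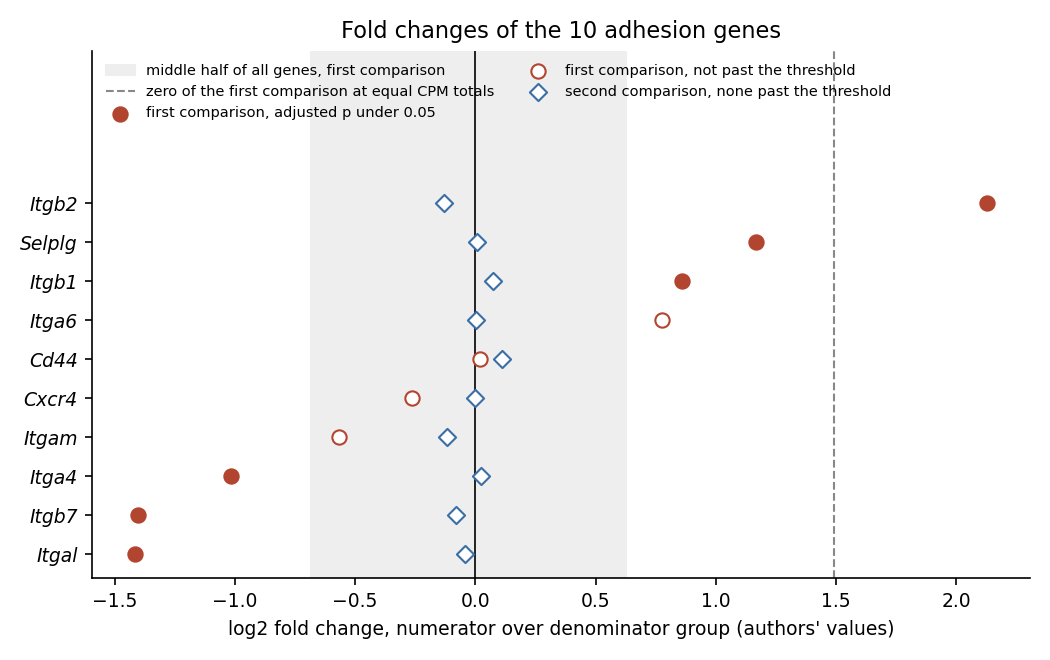
Log2 fold changes of the 10 genes (rows) in the authors' deposited table, with circles for the first comparison, filled where the adjusted p is under 0.05, and diamonds for the second. The grey band is the interquartile range of all genes in the first comparison, -0.68 to 0.63, and the dashed line at 1.49 is where 0 would lie at equal CPM totals; circles run from -1.42 to 2.13, while all diamonds lie between -0.13 and 0.11.

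Itgb2, the chain shared by all leukocyte beta 2 integrins, had the largest fold change of the 10 members on the deposited scale. Its derived level was 36.9 CPM in the denominator group, 33.6 in the second numerator group and 161 in the first numerator group, so that the first numerator group stands apart and the others lie close together. The log2 fold change of Itgb2 in the first comparison of the authors' deposited table was 2.13 (adjusted p = 6.7e-08), a 4.37-fold difference. It exceeded the median of the 500 genes nearest in mean level, 0.87, by 1.26. At equal CPM totals Itgb2 was at 0.64, Itgal at -2.91, Itgb7 at -2.89 and Itga4 at -2.51, where the median of all genes was -1.62. With the median of all genes subtracted from the deposited values, Itgb2 was at 2.26, Itgal at -1.28, Itgb7 at -1.27 and Itga4 at -0.88.

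The alpha chains that LFA-1 and Mac-1 need did not follow. Itgal was at 43.7 CPM in the denominator group, 42.4 in the second numerator group and 16.4 in the first numerator group, where it was the third lowest of the 10. Its log2 fold change in the authors' deposited table was -1.42 (adjusted p = 0.000159), and only 7.33% of all genes had a lower one. Itgam, whose product CD11b is a common target of lineage antibodies although the labels do not list those used here, was at 20.6, 18.9 and 13.9 CPM in the same order. The log2 fold change of Itgam in the authors' deposited table was -0.56 (adjusted p = 0.455), so no difference was detectable. At equal CPM totals Itgam was at -2.06, where the median of all genes was -1.62. An exon of the gene model Gm49368 on the same strand overlaps Itgam in GENCODE M21. Relative to Itgb2, Itgal was 3.54 lower and Itgam 2.69 lower on the log2 scale, as differences of their fold changes. Such differences between genes have no test in a table without library values.

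The other alpha chains of beta 2, which are no members, went the opposite way. Itgad was at 3.50 CPM in the denominator group, 0.679 in the second numerator group and 280 in the first numerator group. In the authors' deposited table its log2 fold change was 6.32 (adjusted p = 9.9e-22) in the first comparison and -2.25 (adjusted p = 1) in the second. Itgax, the CD11c chain of dendritic cells and macrophages, was at 5.53, 3.30 and 102 CPM in that order, and the authors' deposited table gave it a log2 fold change of 4.20 (adjusted p = 1.6e-13). In RefSeq's gene order on chromosome 7, Itgam, Itgax and Itgad follow each other with 0 protein-coding genes between them, and 35 lie between Itgal and Itgam. Direct neighbours thus had log2 fold changes of -0.56, 4.20 and 6.32 in the authors' deposited table.

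Set beside each other per kilobase of the longest protein-coding transcript, the alpha chain messages of beta 2 stood in another order in the first numerator group. In the denominator group Itgal made up 55.8% of the summed 4 alpha chains, Itgam 29.3%, Itgax 9.13% and Itgad 5.69%. The second numerator group had 61.8%, 30.8%, 6.20% and 1.26%. In the first numerator group Itgad made up 68.6% and Itgax 25.3%, while Itgal made up 3.15% and Itgam 2.98%. The alpha chains together came to 15.0 CPM per kilobase in the denominator group against 12.4 for Itgb2, and to 99.6 against 54.3 in the first numerator group. A share within a group does not depend on the CPM scale. In bulk samples, a change in the number of cells of a type and a change in RNA per cell cannot be told apart.

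**Figure D2:**
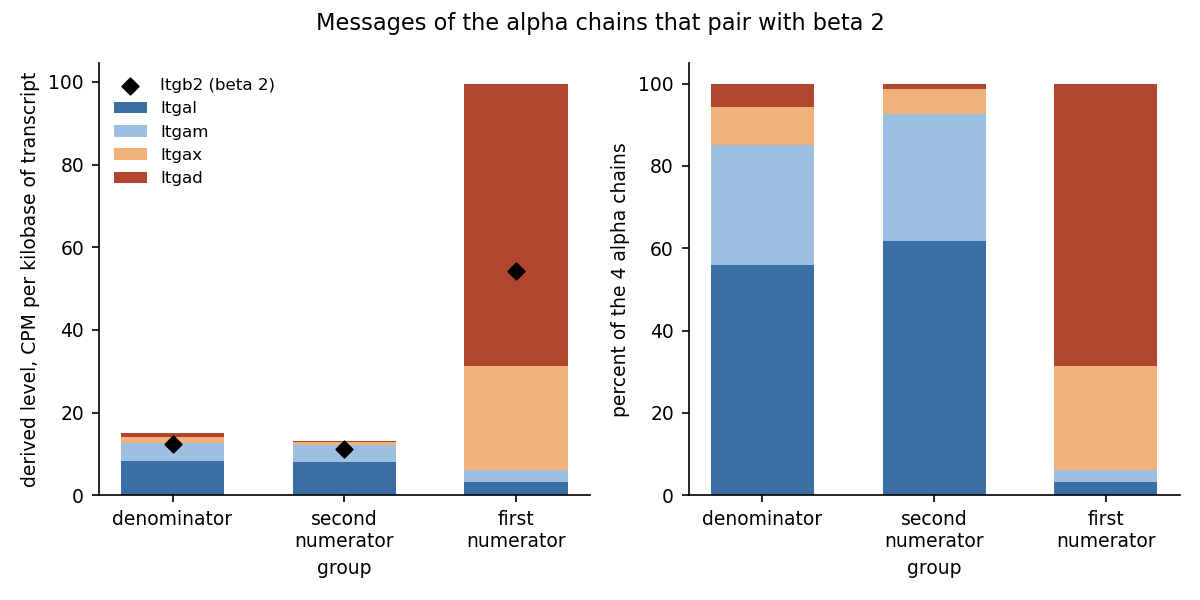
Derived levels of Itgal, Itgam, Itgax and Itgad, the alpha chains that pair with beta 2, in CPM per kilobase of transcript (left, stacked bars, with diamonds for Itgb2) and as percent of their sum (right) in the 3 groups. Itgal and Itgam fill most of the bar in the denominator and second numerator groups, and Itgad with 68.6% and Itgax with 25.3% fill it in the first numerator group.

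Markers of other cells moved in the same comparison, where 18.8% of all genes were called higher and 3.49% lower. In the list of resident macrophages 15 of 15 measured genes were higher in the first numerator group of the authors' deposited table, with a median log2 fold change of 5.0. The complement genes C1qa at 5.0, C1qc at 5.07 and C1qb at 5.0 had the smallest p-values of that list, and Siglec1, at 5.56, had its largest fold change. Their summed level was 4849 CPM there, 237 in the denominator group and 132 in the second numerator group, and none of the 15 was below 1 CPM in the denominator or first numerator group. C1qa was lower in the second comparison of the authors' deposited table, at -2.41 (adjusted p = 0.0195), the only call on that list, where Itgb2 was at -0.13. Megakaryocyte and platelet markers were higher for 10 of 10 (summed 210 CPM in the denominator and 1725 in the first numerator group) and neutrophil markers for 6 of 10 (343 and 1819 CPM), with none lower. B cell markers were lower for 7 of 10 and higher for 1 (500 and 210 CPM). T and NK cell markers were lower for 3 of 8 and higher for 1, with a median of -2.67. Of these 8 genes, 4 were below 1 CPM in the first numerator group and 1 in the denominator group, so the size of that median is uncertain. The T and NK cell sums were 46.5 and 47.1 CPM, but Cd4 alone, the higher gene, was at 3.01 and 40.5 CPM, and the other 7 had fold changes below 0. The part of these cells in the changes of Itgb2, Itgal, Itgb7 and the other members was not tested.

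Among genes of the gate itself, Kit was at 38.8 CPM in the first numerator group, 58.6 in the denominator group and 60.3 in the second numerator group, and did not pass in either comparison, at adjusted p-values of 0.128 and 1 in the authors' deposited table. Ly6a, the gene of the Sca-1 protein that the sort excluded, was at 37.2, 27.6 and 27.2 CPM in that order and did not pass either, at adjusted p-values of 0.402 and 1 in the authors' deposited table. Of the 8 progenitor markers, Mpo was higher at 2.40 and Flt3 lower at -2.28 in the first comparison of the authors' deposited table, while Cd34 was at -0.69 (adjusted p = 0.110). Against genes of like level the median difference of the 8 was -0.49. Mpo and Ly6a each lay 0.57 above such genes, while Kit was at -0.81, Cd34 at -1.15 and Flt3 at -2.05 against them.

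Alpha 4 and beta 7, the chains of the gut homing integrin, were lower together. Itga4 was at 39.6 CPM in the denominator group, 40.4 in the second numerator group and 19.6 in the first numerator group. Its log2 fold change in the authors' deposited table was -1.01 (adjusted p = 0.0107), which lay 0.83 below the median of genes of like level. Itgb7 was at 31.4, 29.7 and 11.9 CPM in the same order, and 11.9 was the lowest level of any member in the first numerator group. The log2 fold change of Itgb7 in the authors' deposited table was -1.40 (adjusted p = 0.00248), 1.05 below genes of like level. In both genes the first numerator group was the low one and the other groups lay together. An exon of Cerkl, on the opposite strand, overlaps an exon of Itga4 in the GENCODE M21 annotation, and the sources used here do not say whether the counting used strand. Cerkl had a mean level of 1.14 log2 CPM in the first comparison of the authors' deposited table against 4.91 for Itga4.

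On the deposited scale beta 1 was higher where its partner alpha 4 was lower. At equal CPM totals both were below 0, and so was the median of all genes, at -1.62. Itgb1 was at 54.5 CPM in the denominator group, 56.9 in the second numerator group and 99.0 in the first numerator group, and in the authors' deposited table its fold change was 0.86 on the log2 scale (adjusted p = 0.0202). At equal CPM totals that value was -0.63, and it lay 0.23 above the median of genes of like level, 0.63, or 0.51 above it with nearness by denominator level. The fold change of alpha 4 minus that of beta 1 was -1.88 on the log2 scale. Per kilobase, the Itga4 level was 0.284 of the Itgb1 level in the denominator group, 0.277 in the second numerator group and 0.0774 in the first numerator group, or 0.563, 0.549 and 0.153 per kilobase of coding length. Beta 7 made up 45.0% of the beta 1 and beta 7 messages in the denominator group, 42.6% in the second numerator group and 14.6% in the first numerator group.

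Alpha 6, the laminin receptor chain of stem and progenitor cells and of platelets, had levels that moved in step with those of its partner beta 1, though it did not pass the threshold. Itga6 was at 24.0 CPM in the denominator group, 24.0 in the second numerator group and 41.1 in the first numerator group. In the authors' deposited table its log2 fold change, 0.78, missed the threshold (adjusted p = 0.0596), though it lay 0.92 above the median of genes of like level, farther than Itgb1 or Selplg. At equal CPM totals Itga6 was at -0.71, where the median of all genes was -1.62. The Itga6 level per kilobase was 0.390 of that of Itgb1 in the denominator group and 0.367 in the first numerator group.

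**Figure D3:**
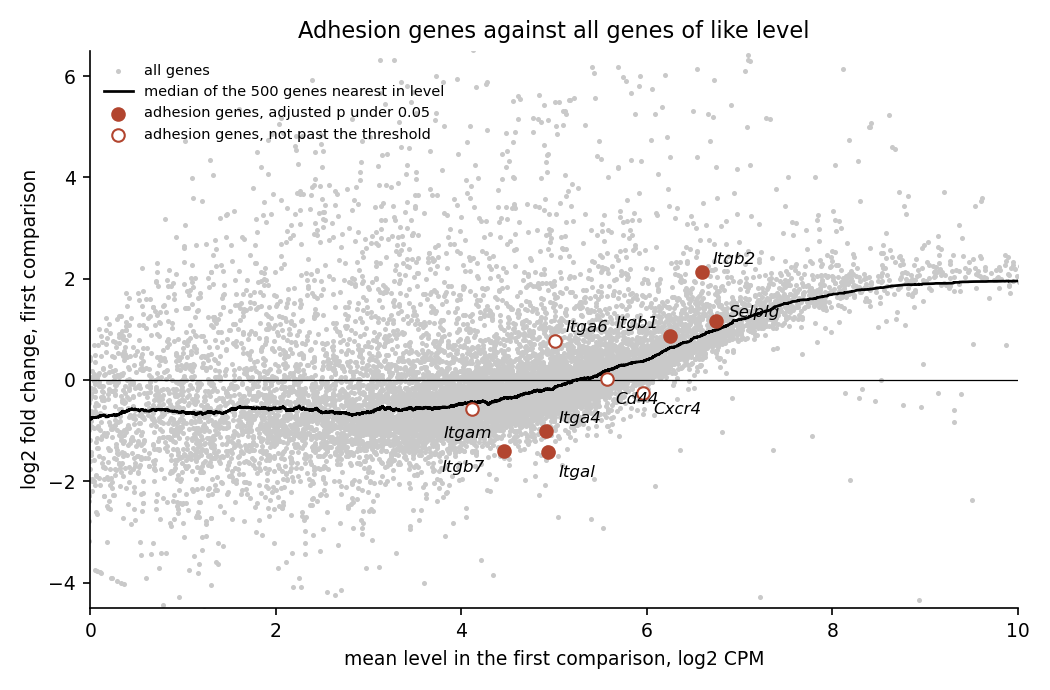
Log2 fold change in the first comparison against the mean level in log2 CPM for all genes (grey) and the 10 adhesion genes (red, filled where the adjusted p is under 0.05), with the median of the 500 genes nearest in level as a line. Genes beyond the axes are not drawn; Selplg and Itgb1 lie 0.18 and 0.23 above the line, Itgb2 1.26 above it and Itgal 1.23 below it.

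Selplg, the ligand of P-selectin, was the most abundant member per kilobase after Cxcr4 in the denominator group and the most abundant in the first numerator group. It was at 67.2 CPM in the denominator group, 67.4 in the second numerator group and 151 in the first numerator group, and the authors' deposited table listed a log2 fold change of 1.17 for it (adjusted p = 0.00162). At equal CPM totals the value was -0.32, and it lay 0.18 above the median of genes of like level, 0.99. Against genes nearest in denominator level instead of mean level it lay 0.56 above their median. Selplg was thus higher on the deposited scale and slightly above genes of like level. It was below 0 at equal CPM totals, where the median of all genes was -1.62. Genes that build and carry the selectin-binding sugars were higher for 2 of 15 and lower for 1 in the authors' deposited table, with a median of -0.03. Of all genes 18.8% were higher and 3.49% lower, so these counts lie near the shares over all genes. None of the 2 higher ones stays above 0 at equal CPM totals. The lower gene in the authors' deposited table was Fut7, whose enzyme adds the fucose that selectins need, at -1.68 (adjusted p = 0.000119). It was at 34.2 CPM in the denominator group and 10.7 in the first numerator group. Tpst2, which sulfates tyrosines of PSGL-1, was higher at 1.0 and C1galt1, which extends its O-glycans, at 0.80 in the authors' deposited table.

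Cd44 and Cxcr4 gave no detectable difference. Cd44 was at 47.3 CPM in the denominator group, 51.0 in the second numerator group and 47.96 in the first numerator group, and stood at 0.02 (log2) in the authors' deposited table (adjusted p = 1). Cxcr4 was at 67.6, 67.5 and 56.3 CPM in that order, and stood at -0.26 (log2) in the authors' deposited table (adjusted p = 0.645), 0.63 below the median of genes of like level. Without a standard error no interval can be set on either deposited value, so a difference is not excluded. At equal CPM totals Cd44 was at -1.47 and Cxcr4 at -1.76, where the median of all genes was -1.62. In per-kilobase levels Cxcr4 led the 10 genes in the denominator group at 37.5 CPM per kilobase, ahead of Selplg at 36.2, Itgb1 at 14.3, Itgb2 at 12.4 and Itgb7 at 11.7. In the first numerator group the order was Selplg at 81.4, Itgb2 at 54.3, Cxcr4 at 31.2 and Itgb1 at 25.9, and Itga4 was last at 2.01. Which neighbours in these orders differ beyond their spread cannot be said without library values.

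**Figure D4:**
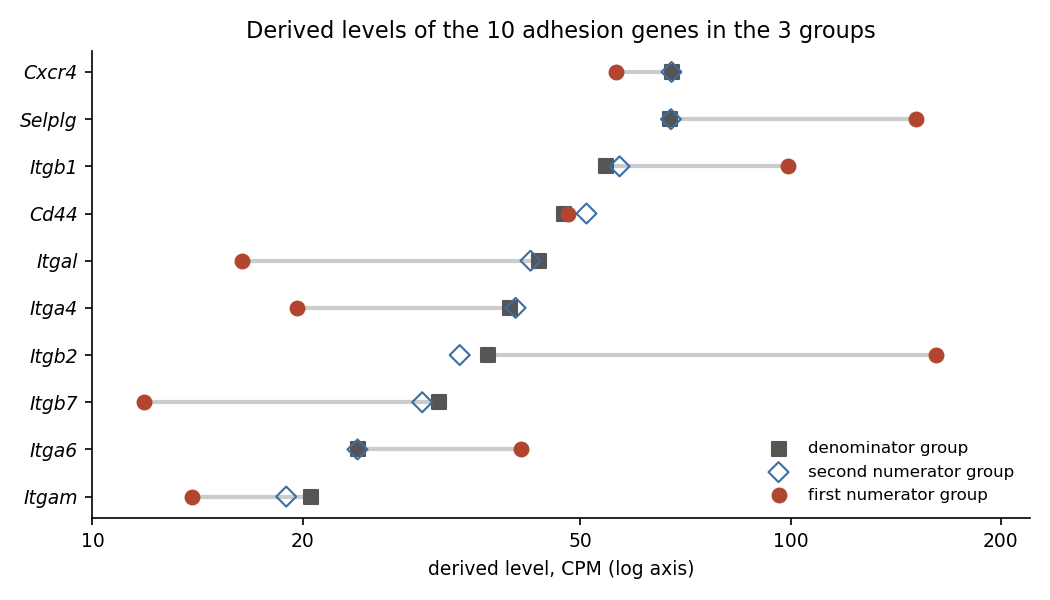
Derived levels in CPM (log axis) of the 10 genes in the denominator group (squares), the second numerator group (diamonds) and the first numerator group (circles), with a line from the denominator to the first numerator group. Squares and diamonds lie close together for every gene, while circles run from 11.9 CPM for Itgb7 to 161 for Itgb2.

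In the second comparison no member passed. The authors' deposited table called 0.109% of all genes there (0.0704% higher and 0.0391% lower), and 0 of the 10 members, whose smallest unadjusted p was 0.700, for Cd44, so that 0 also had an unadjusted p under 0.05. The sources used here do not name the test behind these p-values. Fold changes ran from -0.13 for Itgb2 to 0.11 for Cd44 on the log2 scale in the authors' deposited table, and 3 members, Itga6, Selplg and Cxcr4, had a p of 1. The median size of the change, regardless of sign, was 0.06 for the members and 0.06 for the 9044 genes above 3 log2 CPM in both comparisons. Of all genes in the second comparison 31.4% have a p of 1. No interval can be given, so these values do not show that the groups are alike. Between the numerator groups, the difference of the deposited fold changes put Itgb2 2.26 higher and Itgal 1.37 lower in the first, close to the first comparison itself, with which it shares the first numerator group.

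Among other genes of the pathway in the first comparison, integrin chains and their activators are given beside the 18.8% of all genes called higher and the median of -0.13, on the deposited scale. Of 12 other integrin chains with a row, 6 were higher and none lower in the authors' deposited table, with a median of 1.77; all 6 also stay above 0 at equal CPM totals. Beside Itgad and Itgax these were the platelet chains Itga2b at 2.90 and Itgb3 at 2.86, Itgb5 at 3.56 and Itga9 at 3.85 in the authors' deposited table. Itga9 was at 1.23 CPM in the denominator group, so the size of its fold change is uncertain. Of 24 genes that switch integrins on or tie them to actin, 11 were higher and none lower with a median of 0.68, and 6 of the 11 stay above 0 at equal CPM totals. Rap1b and Rap1a, small GTPases that start integrin activation, were higher at 2.52 and 1.97 in the authors' deposited table. The actin linker Actn1 was at 2.54 and the adaptor Fyb at 1.69 there. Talin (Tln1) and kindlin-3 (Fermt3), which bind the tails of beta chains, were at 1.09 and 1.67 in the authors' deposited table. At equal CPM totals Tln1 was at -0.40 and Fermt3 at 0.18, against a median of -1.62 over all genes. Against genes of like level the median difference of these 24 genes was 0.31. Rap1b lay 0.82, Rap1a 0.28, Fermt3 0.23 and Tln1 0.14 above such genes, while Actn1 lay 2.26 and Fyb 1.47 above them.

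The partners that integrins and selectins bind were higher for 3 of 11 and lower for none in the authors' deposited table, with a median of 0.47. The shares over all genes were 18.8% higher and 3.49% lower. Vcam1, the ligand of VLA-4 that marrow macrophages also carry, rose most, from 27.3 CPM in the denominator group to 440 in the first numerator group (4.01, adjusted p = 1.5e-20 in the authors' deposited table). Vcam1 is also 1 of the macrophage markers above, and Itga2b and Itgb3 are among the megakaryocyte markers. Icam1, the ligand of LFA-1 and Mac-1, was higher at 1.31 and Selp, the P-selectin of platelets and vessels, at 1.28 in the authors' deposited table. At equal CPM totals Icam1 and Selp were at -0.18 and -0.21, against a median of -1.62 over all genes. Fibronectin (Fn1) at 0.90 (adjusted p = 0.531) did not pass in the authors' deposited table, and Cxcl12 was not analysed here.

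Chemotactic receptors split, with 4 of 16 higher and 2 lower in the authors' deposited table and a median of -0.60. Against genes of like level the median difference of these receptors was -0.02. Of all genes 18.8% were higher and 3.49% lower. Higher were the eosinophil receptor Ccr3 at 5.75, the formyl peptide receptors Fpr1 at 5.62 and Fpr2 at 6.51, and Cxcr3 at 2.30 in the authors' deposited table. Fpr2 was at 0.394 CPM and Fpr1 at 1.19 CPM in the denominator group, so the sizes of their fold changes are uncertain. Lower in the authors' deposited table were the monocyte receptors Cx3cr1 at -2.59 and Ccr2 at -1.20. Genes that carry or regulate the CXCR4 signal were higher for 11 of 19 and lower for 1, and their median in the authors' deposited table was 0.90; 6 of the 11 stay above 0 at equal CPM totals. They include Gnai2, the G protein subunit of chemokine receptors, at 1.74, the GTPase Rac1 at 2.02, and the neutrophil proteases Elane at 2.37 and Ctsg at 2.03, which cut CXCL12, in the authors' deposited table. Dpp4, a surface protease that also cuts CXCL12, was the lower gene, at -2.34 (adjusted p = 0.000341) in the authors' deposited table. Cxcr4 itself did not pass, while 12 of 19 genes of its list and 22.3% of all genes did. Against genes of like level the median difference of the list was 0.29.

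**Figure D5:**
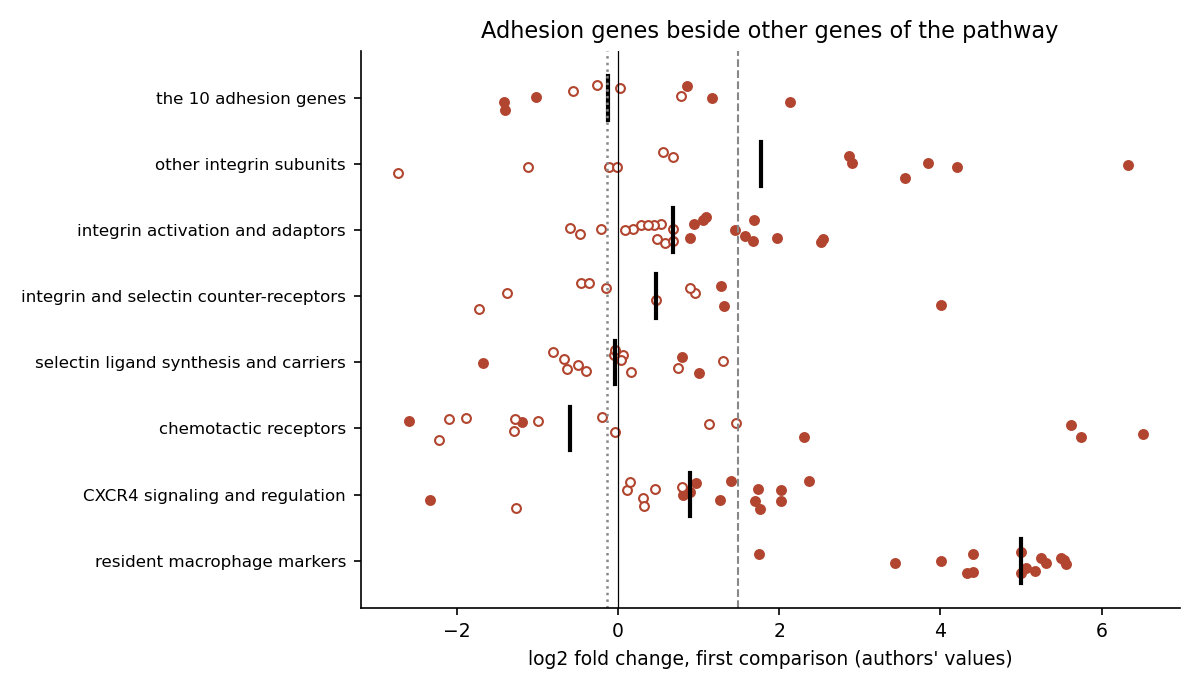
Log2 fold changes in the first comparison of the authors' deposited table for the 10 adhesion genes, 6 lists of related genes and resident macrophage markers, 1 point per gene, filled where the adjusted p is under 0.05. Black bars are list medians, the dotted line is the median of all genes at -0.13 and the dashed line at 1.49 is 0 at equal CPM totals; the 10 genes lie on both sides of 0 while all filled points of other integrin chains lie to the right of the dashed line.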

How the data were processed

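Per the labels' protocols, total RNA went into Illumina TruSeq libraries. Bowtie 0.12.2 and build mm8 appear in the submitters' processing notes, with no role stated. The sources used here do not name the counting program, the annotation or the test. The authors deposited 1 table with log2 fold changes, mean log2 CPM levels, p-values and false discovery rates, per the file headers. The base of the logarithm was looked at with equal group weights. The denominator levels of the comparisons differed by a median absolute deviation of 0.0087 read as base 2 and 0.0465 as base 10. Read as base e it was 0.0115. That check does not separate base 2 from base e, because fitting the weights alone moved the base 2 value to 0.0020. The adjusted p-values equal a Benjamini-Hochberg adjustment recomputed here.

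Levels of single groups were derived in Python 3.11.15 from mean = w × numerator + (1 − w) × denominator, with w = 0.48 and 0.59, the values at which the denominators matched best over 9044 genes above 3 log2 CPM. These steps were run on simulated data made with the same formula. That checks the code, and cannot show whether the deposited means follow the formula. Transcript lengths are from GENCODE M21, promoters from RefSeq (GRCm38.p6), and 99.2% of gene names matched RefSeq's table. Of the listed genes, 3 were matched by an older name.

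Members, lists and tests were chosen with earlier results of these data known. Named genes are all members, Kdr, Kit, Ly6a, ligands and partner chains of members, the 4 genes of smallest p past the threshold in each pathway list and the 3 of smallest p in marker lists. Itgb5, Itga9, Itga5, Fermt3, Tln1, Cxcr3, Ccr2, Dpp4, Siglec1 and Cerkl were chosen after their values were seen, and not all marker genes within the rule are named. A further gene within the rule is not reported here.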

Additional observations from a re-analysis of the deposited data

How the results depend on the processing

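The direction of 2 called members depends on the scale: at equal CPM totals the log2 fold change of Itgb1 in the first comparison was -0.63 and that of Selplg -0.32, against 0.86 and 1.17 as deposited. On the equal-totals scale Itgb2 was at 0.64, Itgal at -2.91 and the median of all genes at -1.62. The counts of called members stayed within 1.5 times under 4 other choices. At a threshold of 0.01 they were 2 higher and 2 lower in the first comparison, without Itgb1 and Itga4, and at 0.1 they were 4 and 3, with Itga6. Over all genes the lower calls of the first comparison moved from 446 to 233 at 0.01 and 724 at 0.1, and those of the second from 5 to 2 at 0.01 and 12 with both comparisons adjusted together. In the selectin ligand list 1 gene was higher at 0.01 and 2 were lower at 0.1. Against genes of like level 4 members lay above and 6 below with 200 neighbours, with nearness by denominator level and without small RNA genes, and with nearness by denominator level Itgb2 moved from 1.26 to 2.23, Selplg from 0.18 to 0.56 and Itgb1 from 0.23 to 0.51. Other group weights moved no derived level of a member by more than 0.04 on the log2 scale. With coding in place of transcript length, a choice made after seeing the data, Itga4 over Itgb1 was 0.563 in the denominator and 0.153 in the first numerator group. No paired analysis was possible because the table holds no value per library, and leaving out replicates was not run for the same reason.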

Other observations

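The chains of the platelet fibrinogen receptor, which are no members, had nearly the same ratio in the 3 groups. Itga2b was at 322 CPM in the first numerator group and 43.2 in the denominator group, and Itgb3 at 79.97 and 10.99. Per kilobase the Itga2b level was 6.62 times that of Itgb3 in the denominator group, 7.39 times in the second numerator group and 6.79 times in the first numerator group, while the ratio of Itgal to Itgb2 went from 0.673 to 0.0577. Among other partners of beta 1, Itga5, a fibronectin receptor chain, stood at 0.445 of Itgb1 per kilobase in the denominator group and 0.228 in the first numerator group, with a log2 fold change of -0.11 (adjusted p = 1) in the authors' deposited table. Itga9 stood at 0.0123 and 0.0970 of Itgb1 in the same groups. Its level in the denominator group was 1.23 CPM, so the ratio there is uncertain. None of these ratios has a test.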
